A study of Mus musculus with 2 samples.

Results

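The regions described here are 300 narrow, tag-dense Sox4 peaks, each over the transcription start of 1 gene, out of 8730 peaks in the list. They were chosen by position, width and tags. A peak had to be listed as a promoter peak, to cover the start of exactly 1 gene and to be under 1500 bp wide, which 4136 peaks met. Of these, the 300 with the highest tag density were taken, where tag density is the number of sequenced tags in the peak divided by its width. The other 3836 peaks are called the lower-density peaks below. Tags, width, density and fold come from the library that chose the members, so they are given as a description with no test.

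Sox4 binding was mapped by bioChIP, in which a protein carrying a biotin acceptor peptide (BAP) is biotinylated by the bacterial ligase BirA and its chromatin is captured on streptavidin. The cells were C57BL/6 mouse progenitor B cells derived from embryonic fetal liver and immortalized with p190 Bcr-Abl, the fusion kinase of acute leukemia. They had received a BirA retrovirus, then one for p190 Bcr-Abl, then SE-Cre and last BAP-Sox4, with a sort after each, so both libraries came from cells carrying all 4 constructs and the tagged Sox4 came from a retrovirus. There was 1 bioChIP library and 1 input chromatin library, the peaks belong to the former, and a capture from cells with BirA but no BAP-Sox4 was not analysed here. With 1 library a group, no value has a replicate check. Intervals of tag counts below cover counting error only. Those of shares and medians treat genes, peaks or matches as independent draws, and no interval covers differences between libraries.

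Sox4 is a transcription factor of the SOX family, whose HMG box bends DNA by binding in the minor groove at short words such as ACAAAG and ACAATG. In the bone marrow and fetal liver it is required for early B-lineage development. Most promoters of widely used genes are rich in G, C and CpG dinucleotides, and hold words bound by factors such as SP, NF-Y and ETS proteins.

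Promoter sequences of 6 of the 12 densest members are shown to place these words. Each is the 250 bases before the annotated start, from RefSeq on GRCm38.p6, read in the direction of the gene. Capitals mark the word ACAAAG or the word ACAATG, together called the SOX core, or the reverse complement of either. The first 4 hold a SOX core in these bases and the last 2 do not. They were picked after their letters were seen, to show both kinds. Of the 11 with a promoter entry among the 12 densest, 5 hold a SOX core here and Zfp113, Nme1, Elmod2, Cacybp, Kansl2 and Dgcr8 do not, although Zfp113 has one just after the start.
Mtf2 (chr5:108065424-108065673, plus strand): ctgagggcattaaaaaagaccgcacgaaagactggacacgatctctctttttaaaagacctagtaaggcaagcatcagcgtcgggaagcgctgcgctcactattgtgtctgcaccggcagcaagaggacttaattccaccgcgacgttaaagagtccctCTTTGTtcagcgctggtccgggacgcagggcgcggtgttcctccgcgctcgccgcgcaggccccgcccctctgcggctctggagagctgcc
Pdia4 (chr6:47813513-47813762, minus strand): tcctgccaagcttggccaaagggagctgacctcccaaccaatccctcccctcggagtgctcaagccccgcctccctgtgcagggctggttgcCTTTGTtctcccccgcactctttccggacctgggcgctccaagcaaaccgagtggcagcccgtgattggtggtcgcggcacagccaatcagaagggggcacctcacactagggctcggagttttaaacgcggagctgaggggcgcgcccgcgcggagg
Rala (chr13:17944218-17944467, minus strand): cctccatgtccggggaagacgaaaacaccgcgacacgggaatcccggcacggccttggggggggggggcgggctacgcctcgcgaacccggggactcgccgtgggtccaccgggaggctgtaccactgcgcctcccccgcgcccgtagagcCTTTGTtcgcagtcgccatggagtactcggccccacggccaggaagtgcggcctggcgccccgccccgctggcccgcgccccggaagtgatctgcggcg
Snn (chr16:11066048-11066297, plus strand): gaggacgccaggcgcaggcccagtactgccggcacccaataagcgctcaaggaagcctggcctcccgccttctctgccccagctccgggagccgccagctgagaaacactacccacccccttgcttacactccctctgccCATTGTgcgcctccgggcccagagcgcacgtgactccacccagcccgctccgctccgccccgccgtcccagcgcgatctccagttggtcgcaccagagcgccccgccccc
Nme1 (chr11:93968273-93968522, minus strand): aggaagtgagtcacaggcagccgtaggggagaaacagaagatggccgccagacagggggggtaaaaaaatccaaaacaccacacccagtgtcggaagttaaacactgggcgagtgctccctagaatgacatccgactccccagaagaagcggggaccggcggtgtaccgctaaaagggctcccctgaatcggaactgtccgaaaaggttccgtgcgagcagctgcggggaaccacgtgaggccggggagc
Kansl2 (chr15:98534270-98534519, minus strand): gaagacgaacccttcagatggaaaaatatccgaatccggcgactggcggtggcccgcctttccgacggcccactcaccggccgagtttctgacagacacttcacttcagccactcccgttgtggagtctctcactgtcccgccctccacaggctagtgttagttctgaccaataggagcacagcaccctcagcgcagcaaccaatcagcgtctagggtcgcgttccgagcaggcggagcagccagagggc
Mtf2, Pdia4 and Rala share a longer word, GAACAAAG, printed here on its other strand. Mtf2 encodes a Polycomb-like protein of the PRC2 complex, Pdia4 a disulfide isomerase of the endoplasmic reticulum, Rala a Ras-like GTPase and Snn the small membrane protein stannin. Nme1 encodes a nucleoside diphosphate kinase, and Kansl2 a subunit of the NSL histone acetyltransferase complex.

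The word GAACAAAG is shown with 6 bases on either side in 16 member promoters, read on the strand that holds it, with its GRCm38.p6 position. Capitals mark the word. The bases around the word were read in 24 of the 25 member promoters that hold it. Shown are the 10 of those 24 whose distance to the peak summit could be computed. The 6 others shown are in the 12 densest or in the gene lists described further on. The word was picked after the ranking of all words given below, so the alignment of these lines is set by that choice.
Mtf2 (chr5:108065577-108065596, minus strand): agcgctGAACAAAGagggac
Zfp113 (chr5:138155710-138155729, plus strand): agaacaGAACAAAGaacgga
Pdia4 (chr6:47813657-47813676, plus strand): gggggaGAACAAAGgcaacc
1700113A16Rik (chr3:88178014-88178033, plus strand): cgcgtgGAACAAAGgccttc
Rala (chr13:17944303-17944322, plus strand): gactgcGAACAAAGgctcta
1110038B12Rik (chr17:34952574-34952593, plus strand): cgaaggGAACAAAGaggaat
Cct2 (chr10:117063977-117063996, plus strand): actagaGAACAAAGagacaa
Xrcc5 (chr1:72307373-72307392, plus strand): ctcagaGAACAAAGccttgc
Afap1 (chr5:35893247-35893266, minus strand): caggagGAACAAAGagaggc
Ttyh3 (chr5:140649015-140649034, minus strand): ggcggtGAACAAAGaggcgg
Rfc3 (chr5:151651353-151651372, minus strand): gggtgaGAACAAAGaggcag
Cnpy2 (chr10:128322388-128322407, minus strand): accaaaGAACAAAGgtagcc
Nupr1l (chr5:129908455-129908474, plus strand): catctgGAACAAAGaagcat
Plxnb1 (chr9:109095438-109095457, minus strand): cgctggGAACAAAGgagaca
Zfp560 (chr9:20385132-20385151, plus strand): tctgagGAACAAAGgagctt
Gtf2a1 (chr12:91590652-91590671, minus strand): gagggaGAACAAAGctttcc
The bases outside the word differ from line to line. Among 24 of the 25 member promoters with the word, the base after GAACAAAG was A in 12, G in 8, C in 4 and T in 0. The word lay on the strand of the gene in 8 and on the opposite strand in 16 of them.

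Member peaks had a median width of 1185.5 bp (738 to 1498) and a median of 146 tags (84 to 462). Their median density was 118 tags per kb, with quartiles of 109 and 143, and the densest reached 390.2. The deposited fold, each peak's enrichment over its background, had a median of 9.01 and ran from 3.94 to 42.7. In the lower-density peaks the medians were 911 bp, 70 tags, 75.4 tags per kb and a fold of 4.31. A fold of 10 or more was listed for 115 members (38.3%), against 4.39% of all 8730 peaks and 1 of the 3836 lower-density peaks, Clcn4-2 at 10.3. Fold and density come from the same tags, so nothing is read from that difference. Spearman's rho between them was 0.79 across the 300 members and 0.47 across the lower-density peaks.

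**Figure D1:**
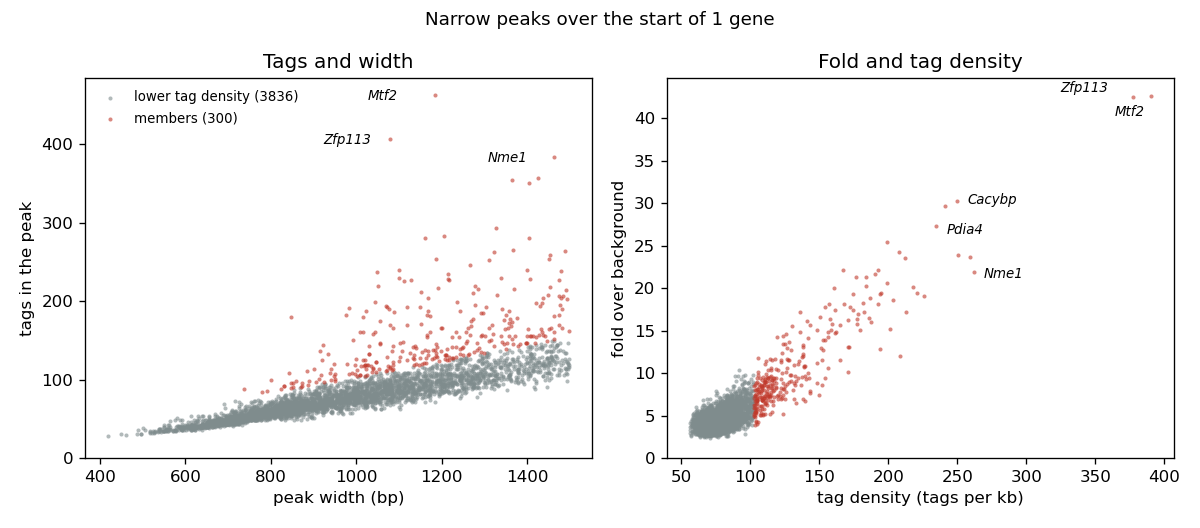
Each point is 1 of the 4136 narrow peaks over the start of 1 gene, with members in red and lower-density peaks in grey. The left panel plots tags in the peak against width in bp, and the right panel plots fold against tag density in tags per kb. Mtf2 (462 tags) and Zfp113 (407 tags) lie apart from the rest, and the members near the selection limit of 102.7 tags per kb run into the grey points.

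The highest members stood well above the remainder, and the lowest did not. Mtf2 held 462 tags (95% Poisson interval 420.8 to 506) in 1184 bp, at chr5:108494016-108495200 of mm9. Zfp113, a zinc finger gene, held 407 tags in 1078 bp at chr5:138596350-138597428, with a fold of 42.5. Next came Nme1 with 383 tags, a density of 262 tags per kb and a fold of 21.9. After it came Elmod2, which encodes a GTPase-activating protein, with 354 tags and a fold of 23.6. Khdrbs1, the gene of the RNA-binding protein Sam68, had 357 tags and a fold of 23.9. Cacybp, which encodes calcyclin binding protein, had 351 tags and a fold of 30.3, the third highest fold among members. The rest of the 12 densest were Kansl2, Pdia4, the long noncoding RNA gene 1700113A16Rik, Snn, Rala and Dgcr8, a gene of the microRNA-processing Microprocessor, with 237 to 293 tags and folds of 17.1 to 29.6.

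At the other end, Dis3l (fold 3.94), Bsdc1 (4.05) and the PRC2 core gene Suz12 (4.23) had the lowest folds although they held 131 to 135 tags. The last 3 members were 2810474O19Rik, Smarcc2 and Dcaf10 at 102.9, 102.8 and 102.7 tags per kb. The first 3 peaks left out were Ccnl2, Trp53bp2 and Tulp4 at 102.7, 102.6 and 102.6. The densities on both sides of the limit are thus within their counting error, as 139 tags in Smarcc2 has an interval of 117 to 164.

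The SOX core was far more frequent in the promoters of member genes than in those of lower-density peaks. It occurred on either strand, from 250 bases before to 50 after the start, in 119 of 251 member genes (47.4%, 95% Clopper-Pearson interval 41.1 to 53.8). The share was 19.0% (17.6 to 20.4) of 3057 genes under lower-density peaks and 25.3% (24.6 to 25.9) of 16783 protein-coding genes. It was 29.8% (28.9 to 30.8) of 8554 genes with no peak listed for them, and 28.8% of all 27025 genes in the promoter table. The members' interval overlapped none of these, and the lower-density peaks lay below all protein-coding genes. These counts cover the 251 of 299 member genes with an entry in the table, and use the first listed start where a gene has several. The peaks are several times wider than the window, so words elsewhere under a peak were not counted.

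Both words of the core were more frequent in members than at lower density, but only ACAAAG had an interval above the wider backgrounds. ACAAAG was found in 37.5% (31.4 to 43.8) of member promoters against 13.1% (11.9 to 14.3) at lower density, and ACAATG in 14.7% (10.6 to 19.7) against 6.67% (5.81 to 7.62). Over protein-coding genes the shares were 16.7% for ACAAAG and 10.7% for ACAATG. Over genes with no listed peak they were 18.8% and 13.9%. The members' interval for ACAATG includes both of its backgrounds. With an A before the core (AACAAAG or AACAATG, which lie within the core matches) the shares were 19.9% (15.2 to 25.4) and 5.07% (4.32 to 5.91), and 8.01% over protein-coding genes. AACAAAG alone was found in 15.9% (11.6 to 21.1) of member promoters and 3.21% (2.61 to 3.89) at lower density, and 4.90% over protein-coding genes. AACAATG was found in 3.98% (1.93 to 7.20) and 1.86% (1.42 to 2.41), intervals that overlap, and in 3.36% over protein-coding genes. GAACAAAG was found in 25 of 251 member promoters (9.96%, 6.55 to 14.4) and in 25 of 3057 at lower density (0.818%, 0.530 to 1.20). Over protein-coding genes that share was 1.48%, and over all genes with a promoter entry it was 1.72%. Zfp422 and Cnih4 held 3 SOX cores each, the most of any member; Cnih4 was named after its values were seen.

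The bases around ACAAAG also differed. Of 106 matches in members, 38.7% (29.4 to 48.6) had A just before the word, against 23.2% (19.3 to 27.5) of 422 matches at lower density. G stood a further base upstream in 52.8% (42.9 to 62.6) against 29.6% (25.3 to 34.2). Just after the word T was found in 4.72% (1.55 to 10.7), against 15.4% at lower density. In members 53 of the 106 matches lay on the strand of the gene.

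When all 2080 words of 6 letters were ranked by the difference between members and lower-density peaks, with both strands counted as 1 word, ACAAAG came first. Its difference was 24.4 percentage points, the next word, CCCGCG, differed by 11.3, and the median word by -0.33. Among 8192 words of 7 letters ACAAAGG came first, AACAAAG followed and ACAAAGA came after it. Among words of 8 letters GAACAAAG led with a difference of 9.14 points. Words of G and C filled most of the following places, such as CGCCGCCC, found in 17.9% (13.4 to 23.2) of member promoters against 9.94% (8.91 to 11.1). This ranking was made after the values had been seen.

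**Figure D2:**
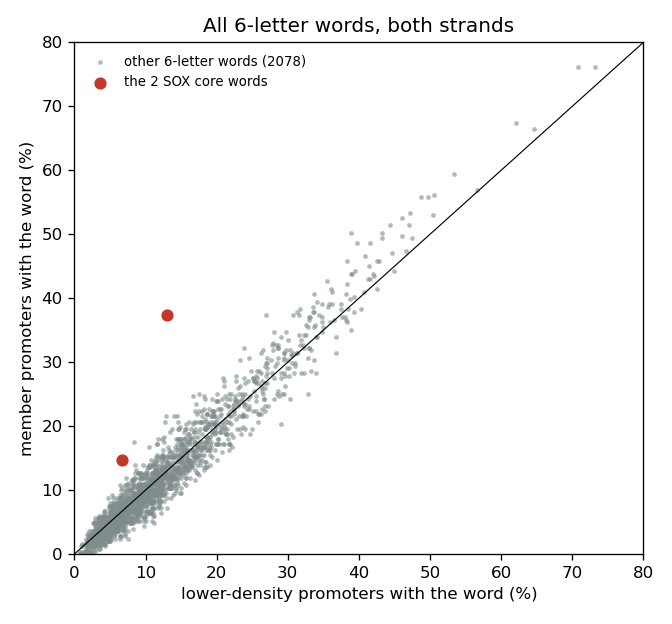
Each point is 1 of the 2080 words of 6 letters, with the percent of 3057 lower-density promoters holding it on the x axis and the percent of 251 member promoters on the y axis; the line marks equal shares. ACAAAG, the upper red point, stands at 37.5% against 13.1%, away from the band of other words, and ACAATG, the lower red point, at 14.7% against 6.67%.

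The SOX core share fell with tag density. In groups of 300 peaks by density it was 47.4%, 28.9%, 23.5% and 22.8% in the first 4 groups, and between 12.4% and 21.0% in the other 10. Within the members, in groups of 50, it went from 62.2% (46.5 to 76.2) of 45 promoters through 51.2%, 50%, 48.9% and 38.5% to 31.7% (18.1 to 48.1) of 41. Members with a fold of 10 or more held it in 63 of 101 promoters (62.4%, 52.2 to 71.8), and those below in 56 of 150 (37.3%, 29.6 to 45.6). Density and fold share their tags, so these are not separate lines of evidence. The CCAAT box stayed between 33.9% and 46.0% over the 14 groups of 300, and the GC box between 64.8% and 79.7%.

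**Figure D3:**
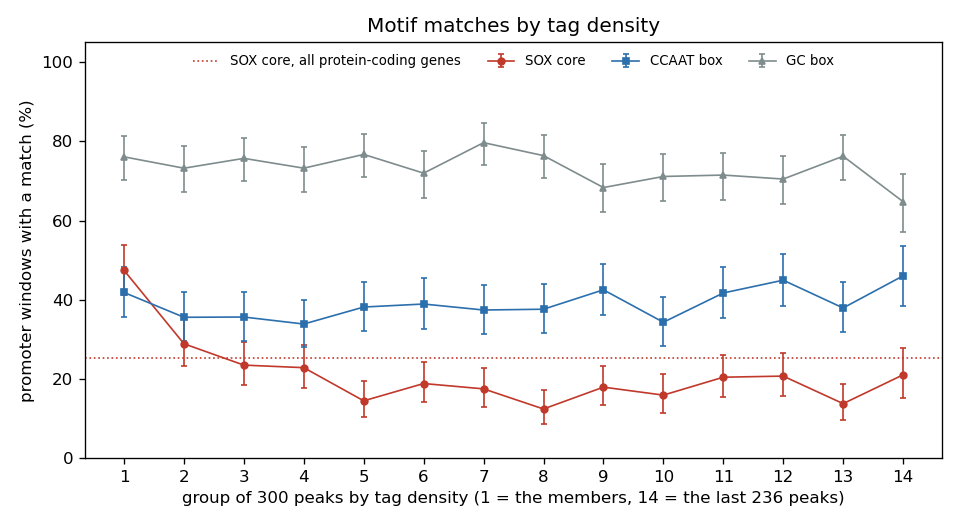
The x axis gives the 14 groups of 300 peaks in order of falling tag density, the last with 236, and the y axis the percent of promoter windows with a match; bars are 95% Clopper-Pearson intervals. The SOX core falls from 47.4% in the members to 22.8% in the fourth group and lies below the dotted line for protein-coding genes (25.3%) from the third group on, while the CCAAT box and GC box stay within 33.9% to 46.0% and 64.8% to 79.7%.

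Other promoter words were shared by members and lower-density peaks. The CCAAT box (CCAAT, bound by NF-Y) was found in 41.8% (35.7 to 48.2) of member promoters and 38.7% (36.9 to 40.4) at lower density, with 4 copies in Dgcr8 and 1 in Elmod2. The GC box (GGGCGG, bound by SP and KLF factors) was found in 76.1% (70.3 to 81.2) and 73.2% (71.6 to 74.8), against 32.2% of genes with no listed peak. It was present once in Mtf2 and 9 times in Egln1, an oxygen-sensing prolyl hydroxylase gene. The ETS word CCGGAAG stood at 19.9% (15.2 to 25.4) and 21.8% (20.4 to 23.3), and was seen in Elmod2 and 3 times in Zcchc6. The LEF/TCF word ATCAAAG, which is read by related HMG-box factors and shares CAAAG with the SOX core, stood at 2.79% (1.13 to 5.66) and 1.96% (1.50 to 2.52), with Ywhaq the densest member holding it. TATAAA was found in 4.78% (2.49 to 8.20) and 5.66% (4.87 to 6.54), and in 19.3% of genes with no listed peak; 1110038B12Rik was the densest member with it and Mbnl1 held 2 copies.

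Words of B-lineage factors gave the same picture. The E-protein words CAGCTG and CACCTG were found in 26.7% and 27.9%, the EBF1 word CCCNNGGG in 21.9% and 18.9%, and the RUNX word ACCACA in 11.95% and 11.3% of member and lower-density promoters. The Ikaros word TGGGAA stood at 17.1% and 21.0%, and the PU.1 word GAGGAAG at 13.5% and 13.6%. The intervals of each pair overlapped. Of the 19 motifs counted, only the SOX core and SOX long matches had members' and lower-density intervals that did not overlap. A match is a description of letters, and no match says only that the letters are not in this window.

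**Figure D4:**
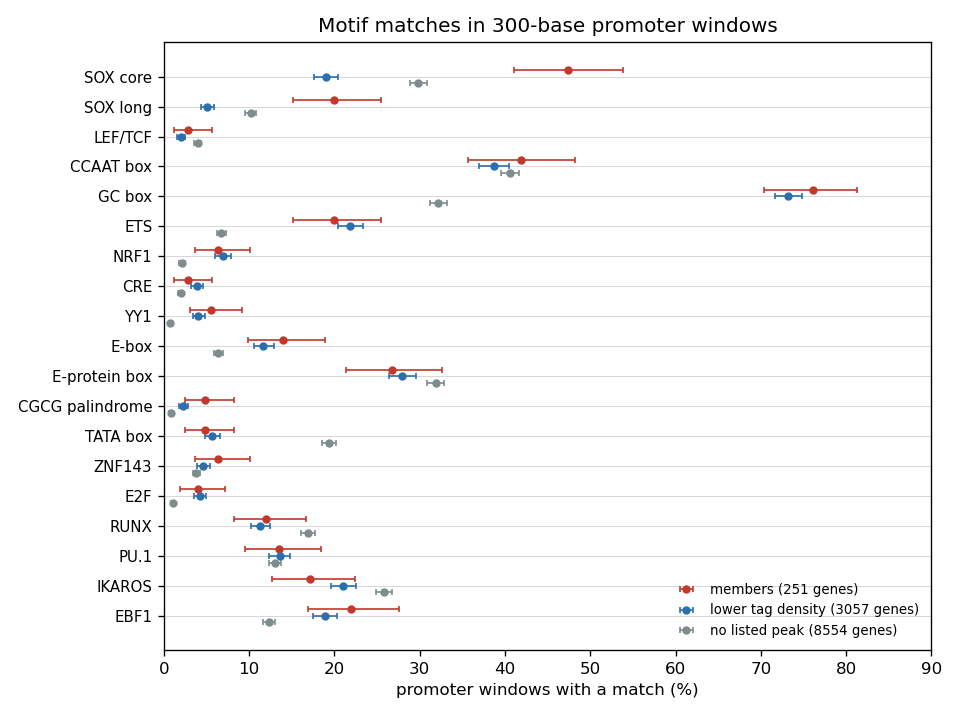
Each row is 1 of 19 motifs, and the x axis gives the percent of 300-base promoter windows with a match on either strand, in members (red), lower-density peaks (blue) and genes with no listed peak (grey); bars are 95% Clopper-Pearson intervals. The SOX core stands at 47.4%, 19.0% and 29.8% in the 3 sets and the GC box at 76.1%, 73.2% and 32.2%.

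Base composition set member promoters apart from genes with no listed peak, and little from lower-density peaks. The median GC share was 64.3% (interval of the median 62.3 to 65.7) in members and 62.7% (62.3 to 63.0) at lower density, against 51.3% in genes with no listed peak. The observed over expected CpG ratio, which is near 1 where CpG is not depleted, had medians of 0.849, 0.824 and 0.323. Each SOX core word has 4 A or T letters of 6. Promoters matched for base composition were not compared, so its part in the SOX core shares was not tested.

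The summit, the base of highest tag pile-up in a peak, lay close to the SOX core in members. No mm9 genome was used, so the distance was taken through the gene's start. The mm9 start was derived from distances that the list gives for other peaks of the same transcript, and the word's place from the GRCm38.p6 window, taking the starts of both builds as the same. This could be done for 129 member peaks and 1598 lower-density peaks. Of the 63 member peaks with a SOX core in the window, 15 had the nearest one within 10 bp of the summit, 27 within 20 bp and 39 within 50 bp (61.9%, 48.8 to 73.9). The median distance was 31 bp (quartiles 11.5 and 132.5). In 300 lower-density peaks with a core the median was 102 bp, and 30% (24.9 to 35.5) lay within 50 bp.

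The common promoter words CCAAT box, GC box and ETS lay no nearer in members. The median distance from summit to word was 134.5 bp in members and 95.5 bp at lower density for the CCAAT box, 127 bp and 56 bp for the GC box, and 142.5 bp and 67.5 bp for the ETS word. Of rarer words, the CRE (TGACGTCA) lay nearer in members, at a median of 37 bp in 5 peaks against 80 bp in 61, and so did TATAAA, at 119 bp in 7 peaks against 193.75 bp in 96. The window of 100 bp around the summit could be read whole for 52 members and 803 lower-density peaks. A SOX core was found in 29 of the 52 (55.8%, 41.3 to 69.5) and 65 of the 803 (8.09%, 6.30 to 10.2), a GC box in 48.1% and 54.3%, and a CCAAT box in 19.2% and 21.7%.

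**Figure D5:**
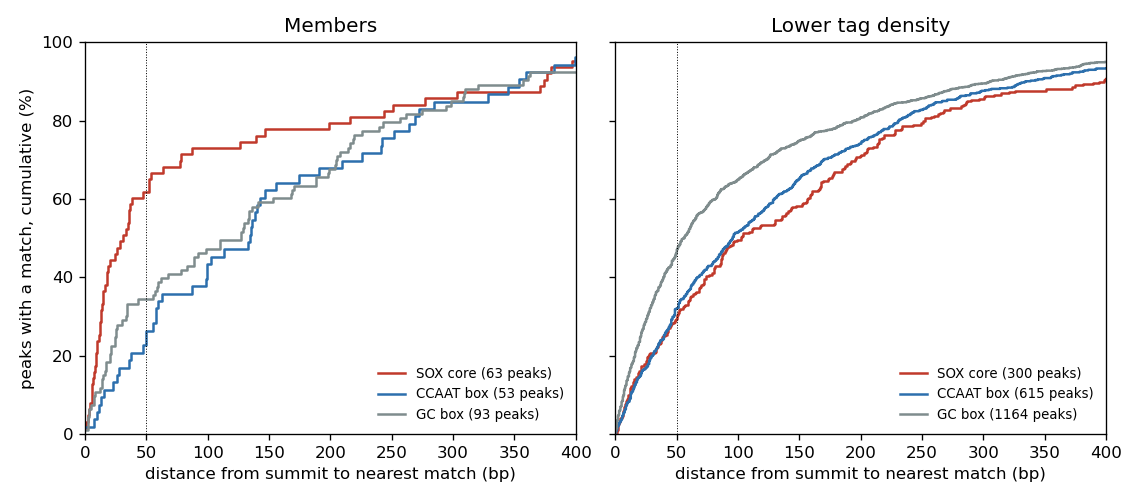
The x axis gives the distance in bp from a peak's summit to the nearest match in the promoter window, drawn to 400 bp, and the y axis the cumulative percent of peaks with a match, in members (left) and lower-density peaks (right); the dotted line marks 50 bp. In members the SOX core curve reaches 61.9% at 50 bp, above the CCAAT box and GC box, and at lower density it reaches 30% and lies below the GC box.

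For the word GAACAAAG a distance could be computed in 10 of the 24 promoters counted above, all 10 of them printed. In 9 of the 10 it was under 50 bp, with a median over the 10 of 8.5 bp. The word lay 6 bp from the summit in Mtf2, 12.5 bp in Zfp113, where it stands after the start, 1.5 bp in Pdia4 and 2 bp in Nupr1l. In Afap1, an actin filament gene, it lay 7 bp away, in Ttyh3 5 bp and in the TFIIA gene Gtf2a1 10 bp. In the semaphorin receptor gene Plxnb1 it lay 14 bp and in Cnpy2 37.5 bp away. The exception was the noncoding gene 1110038B12Rik at 155.5 bp. The word was thus near the summit both upstream of the start, as in Gtf2a1 at position -174, and downstream of it.

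Summits as a whole sat near the start, with a median position of -37 bp (quartiles -131 and 186.5) in members and -31.3 bp (-99.4 and 57.9) at lower density. Within 250 bp of the start were 70.5% (61.9 to 78.2) of member summits and 83.3% (81.4 to 85.1) of the others. Where the summit fell inside the promoter window, 47 of 70 members held a SOX core (67.1%, 54.9 to 77.9), against 210 of 1050 lower-density peaks (20%, 17.6 to 22.5). Where it fell downstream of the window, 10 of 43 members held one (23.3%, 11.8 to 38.6) against 18.01%. Nme1 and Dgcr8, whose windows hold no SOX core, had summits at 486 and 243 bp after the start, outside the letters that were read.

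SOX cores were spread over the window rather than held at 1 place. In 50-base bins from -250 to the end of the window, 5.58%, 13.5%, 8.76%, 11.6%, 5.98% and 8.76% of member promoters held one, against 2.72% to 4.22% at lower density. The bin from -200 to -151 was the highest in members, with 34 genes.

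By class, 292 of the 299 member genes were protein-coding and 7 made long noncoding RNAs. Slc38a1, a glutamine transporter gene, had 2 member peaks at different starts, with 158 and 165 tags. Protein-coding genes with their start under a member peak made up 1.39% of 20953, and member genes made up 7.28% of the 4108 genes with a narrow peak over a start. Counts in the 29 functional lists are read against these backgrounds, and 66 of the 299 genes belonged to a list.

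Chromatin regulators held 12 members among 98 genes (12.2%, 6.49 to 20.4), and 26.1% (14.3 to 41.1) of the 46 with a narrow peak. The intervals lie above 1.39% and 7.28%. Many lists were read, and all were chosen with earlier results of these data known. The intervals are therefore a description and not a test. Counted as a share of all member genes, the list supplied 4.01% (2.09 to 6.91) under the main rule. With narrow peaks limited to under 1000 bp it supplied 1% (0.207 to 2.89) of members. After Mtf2 the densest was Smarcd1, a BAF remodelling subunit, with 219 tags, 208 tags per kb and a fold of 12.1, its SOX core 6 bp from the summit. The BAF ATPase gene Smarca4 had 218 tags and a fold of 7.48, and no SOX core in its window. The others were Dot1l, Pcgf3, Kat6a, Cbx1, Kdm3b, Smarca2, Suz12, Eed and Smarcc2, so PRC2, BAF and other complexes were represented. The list's median fold over its members was 7.66, below the 9.01 of all members.

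Zinc finger genes held 17 members among 461 (3.69%, 2.16 to 5.84) and 13.6% (8.13 to 20.9) of the 125 with a narrow peak. Under the same narrower width limit as for chromatin regulators the list made up 3.33% of members, against 5.69%. Zfp113 led, followed by Zfp326 with 246 tags and a fold of 19.3 and Zfp873 with 182 tags and a fold of 18.8. Zfp873 held a SOX core at -125.

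Genes of DNA replication, repair and V(D)J recombination appeared in small numbers. Of 87 cell cycle and replication genes 5 were members (5.75%, 1.89 to 12.9), and the 3 densest were Gins1, a subunit of the replicative helicase complex, Rfc3, a subunit of the clamp loader, and Cdk4, the G1 cyclin-dependent kinase. Gins1 had 190 tags and a fold of 21.3, Rfc3 132 tags and 16.1, and Cdk4 176 tags and 7.96. Of 70 repair genes 3 were members, namely Xrcc5, Ercc6 and Mdc1. Of 12 V(D)J recombination genes 2 were members. Xrcc5, which encodes the Ku80 end-joining protein, had 188 tags and a fold of 20.2, with GAACAAAG at -38. Hmgb1, which encodes a cofactor of RAG cleavage, had 165 tags and a fold of 10.4, with a SOX core 52.5 bp from the summit. With so few genes, the intervals of these 3 lists reach from near the background to well above it.

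Of the Wnt and beta-catenin list, Csnk1e and Lrp6 were members among 42 genes (4.76%, 0.582 to 16.2). Csnk1e, the casein kinase 1 epsilon gene named in the study's title, had 157 tags and a fold of 9.40, and its window held no SOX core. Its summit lay 215.5 bp after the start, outside the window. Lrp6, a Wnt co-receptor gene, had 148 tags and a fold of 6.51.

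B-lineage factor genes held 1 member among 27, Ikzf1, the Ikaros gene, with 120 tags, a fold of 7.36 and a SOX core at -103. The lists of B-cell surface, T-lineage, myeloid, erythroid and hepatocyte genes held 0 members among 19, 18, 14, 14 and 14 genes. Few of those genes had a narrow peak at all, 5 of the B-cell surface genes, 1 T-lineage, 1 erythroid, and 0 myeloid or hepatocyte genes, so the members do not tell these cell types apart.

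Among general housekeeping classes, the member share was below the background in some lists and near it in others. Cytosolic ribosomal protein genes held 2 of 44 with a narrow peak (4.55%, 0.555 to 15.5), Rpl13a and Rps19. Genes of RNA polymerase II, Mediator and general factors held 1 of 53 (1.89%, 0.0478 to 10.1), Gtf2a1. Mitochondrial ribosomal and nuclear oxidative phosphorylation genes held 0 of 28 and 0 of 26. These 4 shares are below the background of 7.28%. Each of the 4 intervals still includes it, as the lists are small. Chaperonin and heat shock genes held 2 of 26 (7.69%), nuclear transport 3 of 38 (7.89%), and Rab and Vps traffic 5 of 74 (6.76%). The chaperonin and heat shock members were Cct2, a chaperonin subunit, with 199 tags and a fold of 21.7, and Hsph1 with 177 tags and a fold of 15.5. Those of nuclear transport were Tnpo1, an import receptor, with 265 tags and a fold of 12.8, its SOX core 13 bp from the summit, as well as Ranbp2 and Xpo7. Rab and Vps traffic was led by Snx1 with 107 tags.

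The remaining lists gave 1 to 3 members each. They were Usp22 (229 tags), Ube2cbp and Fbxl14 in ubiquitin conjugation and removal, Sf3b1 (168 tags) and U2af2 in the spliceosome, and Eif4h and Eif4a2 in translation initiation. Single members were the helicase gene Dhx9 with 228 tags (1 of 17, 5.88%) and the splicing factor gene Srsf4 with 214 (1 of 11, 9.09%). Others were the valine tRNA synthetase gene Vars with 182 (1 of 17, 5.88%) and the proteasome gene Psma6 with 126 (1 of 22, 4.55%). The histone gene Hist1h4h (1 of 10, 10%), whose peak was 848 bp wide, had 180 tags and a fold of 23.6. Its SOX core lay 35 bp from the summit. SOX family and olfactory receptor genes held 0 members among 19 and 1104 genes. Only 1 SOX family gene and 0 olfactory receptor genes had a narrow peak, so almost none could be a member.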

How the data were processed

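The deposited peak list gives each Sox4 peak's position on mm9, its summit, a count of tags, a fold ratio and a score, all made by the authors; per the submitters' processing notes the tools were Bowtie 0.12.8 and MACS 1.4.2 and the build mm9. The score stands in a column headed as a p-value, and its scale and the use of the input as control are not given in the sources used here. The total tags of the library were not given, so depth is known only per peak.

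Members were found by the rule in the opening, and members and gene lists were chosen with earlier results of these data known. Genes were matched to RefSeq tables of GRCm38.p6, 298 peaks by accession and 2 by symbol, and no coordinate was converted between builds. Motifs were searched on both strands in windows of 300 bases. Member starts that differed by over 100 bp between listed distances were left out (6 peaks). Named genes were the 12 densest members, the 5 highest and 3 lowest folds, 3 on either side of the limit, up to 3 densest per list, and per named motif the densest holder and the one with most copies; the other genes among the site lines and those named for an absent or multiple feature were chosen after their values were seen. Shares have exact Clopper-Pearson intervals and medians order-statistic intervals at 95%, and no test was made. Python 3.11.15, pandas 2.3.3 and scipy 1.17.1 were used, and the counting code was tested on simulated data. Alternatives changed the number, width and ranking of members and the promoter window.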

Additional observations from a re-analysis of the deposited data

How the results depend on the processing

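The SOX core share of member promoters stayed above that of the lower-density peaks under each alternative. It was 54.8% with 150 members, 38.4% with 600, 33.5% with widths under 1000 bp and 41.0% ranked by tags, against 19.8%, 18.1%, 18.9% and 19.5% at lower density. It was 23.9% from the last 100 bases to the end of the window, 24.3% on the strand of the gene only and 19.9% for the 7-letter words, against 8.57%, 9.55% and 5.07%. The share of members with a fold of 10 or more was 70% with 150 members, 19.3% with 600, 6.33% with widths under 1000 bp and 63% with no width limit. The median GC share was 61.7% with widths under 1000 bp and 68.7% in the shorter window, where the CpG ratio was 0.919. Of 275 other values, 246 moved by less than their intervals and 29 by more. Using any listed start, or only genes with 1 start, was added after seeing the data; with 1 start, 20 of 36 summit windows held a SOX core (55.6%). Leaving out replicates was not possible with 1 library. Of the members, 221 were kept when ranked by fold, 240 by score, 46 under the 1000 bp limit and 165 with no limit. Depth limits single tag counts, as the intervals show, and 48 member genes had no promoter entry.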

Other observations

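The 7 long noncoding RNA genes among the members had 118 to 237 tags and folds of 6.67 to 19.1. They included 1700113A16Rik (237 tags), 1110038B12Rik (227), Snhg8, a small nucleolar RNA host gene, with 193 tags and a fold of 18.2, and Jpx, an activator of X inactivation, with 155 tags and a fold of 10.3. Chosen after its values were seen, Abl1, the cellular gene of the kinase part of Bcr-Abl, had 194 tags, a fold of 18.2 and a SOX core 19 bp from the summit. The nearest other peak lay at a median of 40.9 kb from a member and 38.5 kb from a lower-density peak, and 12.7% (9.12 to 17.0) against 10.04% (9.10 to 11.03) had one within 5 kb. Member genes had a median length of 27.0 kb, against 25.8 kb at lower density and 17.8 kb over all protein-coding genes. Over the 20 chromosomes the members' share of narrow peaks ran from 3.54% (0.973 to 8.82) on chromosome 18, the lowest, to 11.4% (6.50 to 18.05) on chromosome 16, the highest, and the share over all chromosomes, 300 of 4136, lies within both intervals.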
